A study of Homo sapiens with 6 samples.

Results

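The genes described here are 45 members of the antioxidant system that is governed by the transcription factor NRF2 and of the glutathione and thioredoxin redox pathways. They were taken by symbol from a list chosen with earlier results of these data known, and all 45 were found among the 58233 Ensembl identifiers of the count table. SOD2 was matched by its GENCODE 29 name. The filter on low counts kept 43 of them, and HMOX1 and SRXN1 stayed below it. Messenger RNA was sequenced from OCI-AML2, an established human cell line from acute myeloid leukemia, in the course of a study of the CDK4 and CDK6 inhibitor palbociclib and of resistance to venetoclax, which inhibits BCL2. One group was IKZF1-ko, 3 libraries from cells in which CRISPR editing targeted IKZF1, the gene of the blood transcription factor Ikaros. The other was NT control, 3 libraries from cells that carried a non-targeting guide in place of one against IKZF1. All 6 libraries come from cells grown in the same medium, and the labels name no drug given to these cells. The labels do not settle whether the 3 libraries of a group are separate edited lines or repeat extractions, so the error behind each p-value is that of these libraries and could be technical.

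NRF2, encoded by NFE2L2, is held in the cytoplasm by KEAP1, which passes it on for degradation. Oxidants and electrophiles modify cysteines of KEAP1, and NRF2 then accumulates, pairs with a small MAF protein and binds antioxidant response elements near genes for detoxification, glutathione synthesis and NADPH supply, where BACH1 acts as a repressor. Glutathione and thioredoxin are the main thiol reductants of the cell. Glutathione peroxidases and peroxiredoxins use them to remove peroxides, and glutathione reductase and thioredoxin reductases recycle them with NADPH.

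The IKZF1-ko libraries held 15250588 to 18214328 counts and the NT control libraries 11300519 to 14983528. The targeted gene was not lower in any library labelled IKZF1-ko, with IKZF1 at 421 to 436 CPM (counts per 1000000 counts of a library, scaled by TMM) in IKZF1-ko and 292 to 334 CPM in NT control. A gene's count does not reveal editing, so all directions are those of the libraries so labelled. IKZF1-ko replicate 1 and NT control replicate 2 stood apart from the other 4 libraries on the first principal component, which held 67.6% of the variance. No label names a batch that these libraries share. Of 10 genes listed for myeloid leukemia cells, 9 were well expressed and KIT had at most 4 counts in a library. CD3E, MS4A1, EPCAM, HBA1 and HBB had 0 counts in all 6 libraries. The summed level of 3 fibroblast markers was 52.0, 21.0 and 19.3 CPM in IKZF1-ko replicates 1, 2 and 3 and 15.4, 36.4 and 12.2 CPM in NT control replicates 1, 2 and 3. Nearly all of it was PDGFRB, since COL1A1 had at most 4 counts and COL1A2 at most 2. It was highest in the libraries that stood apart, and its part in the results was not tested. Mitochondrial genes took 3.66% to 3.85% of counts in IKZF1-ko and 3.16% to 4.21% in NT control.

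The redox genes covered a wide range of levels. Divided by the length of all annotated exons, GPX1, a selenium-dependent peroxidase that uses glutathione, was the most abundant, at 524 CPM per kilobase in IKZF1-ko and 474 CPM per kilobase in NT control (means of 3 libraries). In IKZF1-ko, thioredoxin itself (TXN) stood at 162 CPM per kilobase, the peroxiredoxin PRDX1 at 162 and the glutathione transferase GSTP1 at 159. In NT control they stood at 178, 197 and 174 CPM per kilobase. These 3 genes overlapped in their values per library, so their order is not settled. In the lower range, NFE2L2 was at 8.87 CPM per kilobase in IKZF1-ko and 9.42 in NT control. NQO1, a quinone reductase and widely used NRF2 target, was at 3.99 CPM per kilobase in IKZF1-ko and 5.51 in NT control. Below 1.5 CPM per kilobase in both groups were AKR1C3, the malic enzyme gene ME1, OSGIN1 and HMOX1. Reads of GPX1 can also fit its pseudogenes, which hold 21.5% of the 50-base words of its transcript.

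**Figure D1:**
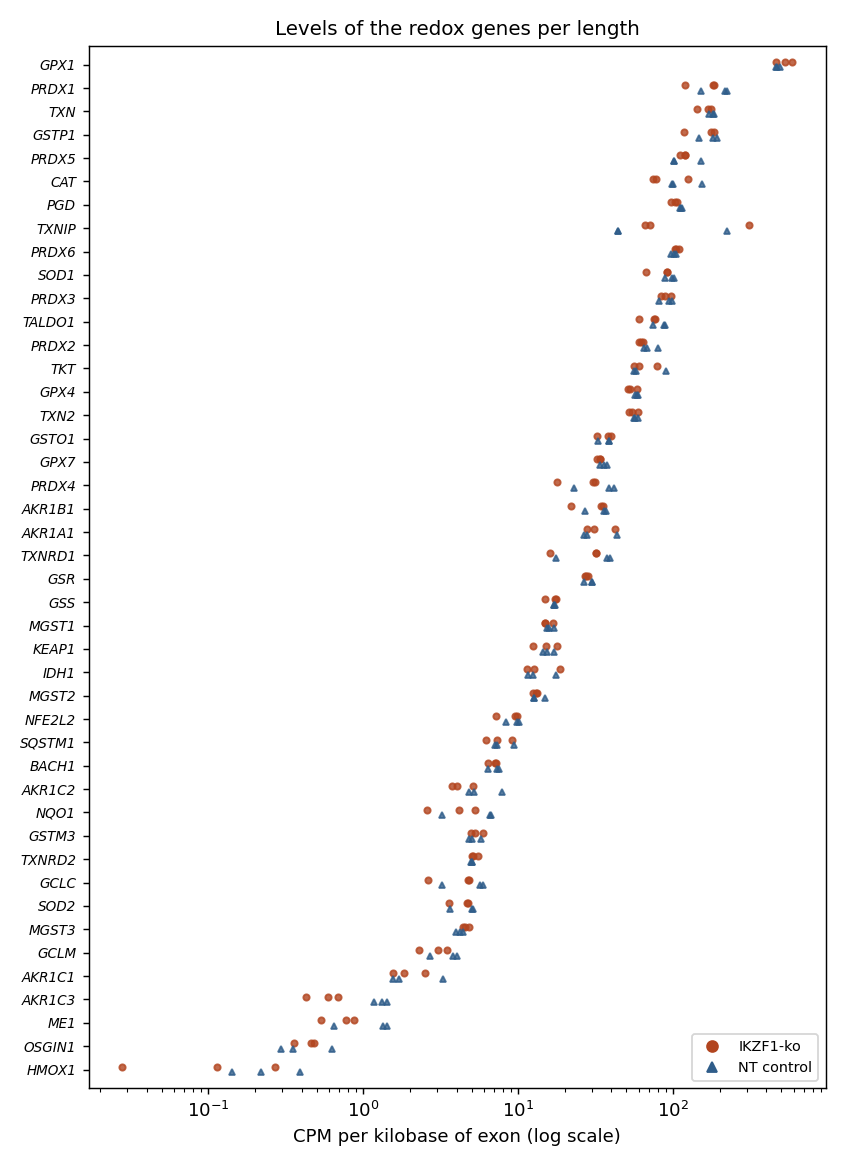
Level of each redox gene in each library, as CPM per kilobase of exon on a logarithmic axis, with IKZF1-ko as circles and NT control as triangles. GPX1 was highest, HMOX1 was lowest, and SRXN1 is not drawn because it had 0 counts in 5 of 6 libraries.

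HMOX1 encodes heme oxygenase 1, which breaks down heme and is among the best known targets of NRF2 and BACH1. It had 1, 5 and 11 counts in IKZF1-ko replicates 1, 2 and 3 and 11, 5 and 6 counts in NT control replicates 1, 2 and 3. The groups overlapped, and no difference was detectable at this depth. SRXN1 encodes sulfiredoxin, which repairs overoxidized peroxiredoxins. It had 0 counts in each IKZF1-ko library and 2, 0 and 0 in NT control, where 0 allows up to 3 counts in a library, for counting error only. Of the 50-base words of its transcript, 84.7% also belong to AL121758.1, an annotated gene on the same strand, which had 0 counts in all 6 libraries. The level of SRXN1 is therefore not measured by this table.

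The comparison of IKZF1-ko with NT control asked which genes differed between libraries with these labels. In an edgeR fit on group alone, 0 of 43 redox genes and 0 of 13028 genes passed the test (0.0%, adjusted p under 0.05). At an unadjusted p under 0.05 there was 1 redox gene, AKR1C3, beside 3.5% of all genes. Of the other tools on group alone, DESeq2 called 71 genes with AKR1C3 among them, limma-voom 1 gene and no redox gene, and limma-voom with sample quality weights 407 genes, including AKR1C3 and CAT, both lower. The results that follow come from an edgeR fit with a second term that separates IKZF1-ko replicate 1 and NT control replicate 2 from the other 4 libraries. The sets come from the counts being tested, and its p-values take them as known.

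With this library-set term 13 of 43 redox genes passed, beside 13.5% of all genes. Of these, 12 of 43 redox genes fell in IKZF1-ko, or 27.9%, beside 6.62% of all 13028 genes. TXNIP rose and was the only riser, 2.33% beside 6.93% of all genes. The median log2 fold change was -0.09 over the 43 redox genes and 0.00 over all genes tested, and 74.4% of the redox genes had a fold change below 0 beside 49.4% of all genes. AKR1C3, AKR1C2, NQO1, PRDX4, CAT, PRDX1, GCLC, TALDO1, TXNRD1, SOD1, PRDX2 and PGD were the genes that fell, and AKR1C3 alone changed more than 2-fold. In the 4 libraries without IKZF1-ko replicate 1 and NT control replicate 2, 10 redox genes fell and 3 rose, beside 7.1% and 7.64% of 12951 genes (14.7% in either direction). With 1 surrogate variable in place of the term, 7 fell and 1 rose, beside 3.63% and 4.41% of all genes (8.04% in either direction). AKR1C2, AKR1C3, CAT, PRDX1, PRDX4, TALDO1 and TXNIP passed in all of these fits. In RNA of a whole culture, fewer cells that express a gene and less RNA per cell cannot be told apart.

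**Figure D2:**
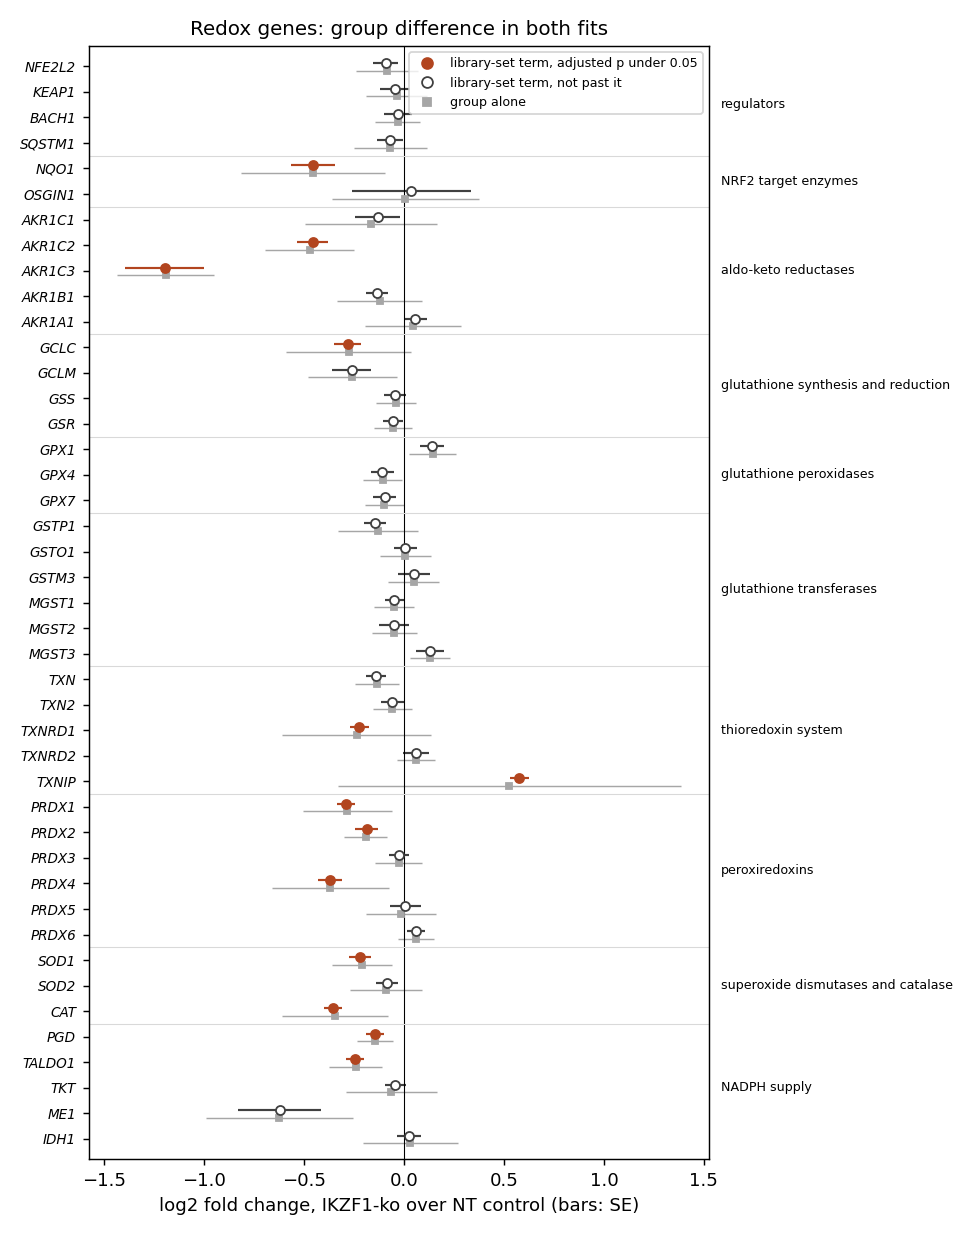
Log2 fold change of IKZF1-ko over NT control for the 43 redox genes tested, with its standard error, by role. Circles are the fit with the library-set term, filled where the adjusted p was under 0.05, and grey squares are the fit on group alone, whose error bars are wider for genes such as TXNIP and TXNRD1.

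TXNIP, the thioredoxin-interacting protein, binds reduced thioredoxin and blocks it, and is also known for limiting glucose uptake. Its gene (ENSG00000265972, GRCh38 chromosome 1, 145992435 to 145996600) was at 1123, 239 and 257 CPM in IKZF1-ko replicates 1, 2 and 3. In NT control replicates 1, 2 and 3 it was at 161, 802 and 159.6 CPM. The groups overlapped, because NT control replicate 2 lay above IKZF1-ko replicates 2 and 3. Among the libraries that stood apart IKZF1-ko was higher, and so it was among the other 4. The log2 fold change with the library-set term was 0.58 (SE 0.049, edgeR adjusted p = 6.85e-07). In the 4 libraries it was 0.63 (adjusted p = 7.95e-11), and with a surrogate variable it was smaller, at 0.26 (adjusted p = 0.00348).

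Since TXNIP had the largest rise among the redox genes with the library-set term, its RefSeq promoter is shown. This choice was made after its values were seen. The window runs from 250 bases before to 50 bases after the start of transcription, and the capitals mark a match to 2 copies of CACGNG with 5 bases between them, a loose form of the carbohydrate response element that glucose-sensing MondoA and ChREBP proteins are known to bind. The match begins 88 bases before the start. RefSeq gives TXNIP a second start, whose window (chr1:145995695-145995994) holds no match and is not printed.
TXNIP promoter, GRCh38.p14 chr1:145996530-145996829, minus strand: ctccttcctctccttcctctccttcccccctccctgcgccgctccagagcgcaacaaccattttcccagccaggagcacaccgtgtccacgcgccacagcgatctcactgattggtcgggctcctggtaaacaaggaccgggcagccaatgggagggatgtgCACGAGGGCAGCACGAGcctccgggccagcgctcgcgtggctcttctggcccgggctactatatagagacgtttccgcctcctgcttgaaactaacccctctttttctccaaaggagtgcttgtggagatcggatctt
Of 35116 promoter windows of the same length, 20 (0.057%) hold this motif on either strand, and TXNIP is the only one of 37 redox genes with a window that does. The form of the motif was also chosen after the values of TXNIP were seen, so these shares lend it no support. The match is a description of the sequence, and binding was not measured.

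Other thioredoxin genes were lower or close to NT control. TXNRD1 encodes the cytosolic thioredoxin reductase, a selenoprotein and NRF2 target. Its levels were 108, 212 and 214 CPM in IKZF1-ko and 252, 118 and 261 CPM in NT control, in the order of the replicates. Within each library set the IKZF1-ko libraries were the lower ones, although the groups overlapped. TXNRD1 fell by 0.22 on the log2 scale (SE 0.049, adjusted p = 0.00547). With a surrogate variable the value was -0.08 (adjusted p = 0.40), and without IKZF1-ko replicate 3 it was -0.21 (adjusted p = 0.064), so the call was lost in both. TXN (log2 fold change -0.14, adjusted p = 0.073), the mitochondrial thioredoxin gene TXN2 (-0.06) and the mitochondrial reductase gene TXNRD2 (0.06) did not pass.

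Peroxiredoxins reduce peroxides with the help of thioredoxin. PRDX1, the abundant cytosolic form, was at 181, 277 and 280.2 CPM in IKZF1-ko and 329, 229 and 341 CPM in NT control. PRDX4, which works in the endoplasmic reticulum, was at 34.1, 60.0 and 57.6 CPM in IKZF1-ko and 73.4, 43.8 and 79.0 CPM in NT control. In both genes the libraries that stood apart were lowest in their group, and IKZF1-ko was the lower one within each set. PRDX1 fell by 0.29 (SE 0.046, adjusted p = 4.02e-04) and PRDX4 by 0.37 (SE 0.060, adjusted p = 5.43e-04) on the log2 scale. PRDX2 was at 127, 133 and 131 CPM in IKZF1-ko and 143, 167 and 136 CPM in NT control, with no overlap of the groups. Its fall of 0.19 (adjusted p = 0.045) rested on NT control replicate 2 and IKZF1-ko replicate 1, since in the other 4 libraries it was -0.08 (adjusted p = 0.29). The call was also lost without IKZF1-ko replicate 3 (adjusted p = 0.11) or NT control replicate 1 (adjusted p = 0.12), and with DESeq2 (adjusted p = 0.057) or upper-quartile scaling (adjusted p = 0.069).

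PRDX3 (log2 fold change -0.03), PRDX5 (0.006) and PRDX6 (0.06) did not pass with the library-set term. PRDX5, an atypical peroxiredoxin of mitochondria and peroxisomes, was at 107, 106 and 99.5 CPM in IKZF1-ko and 90.5, 135 and 90.0 CPM in NT control. In the 4 libraries it was higher in IKZF1-ko (0.19, adjusted p = 0.020), whereas IKZF1-ko replicate 1 lay below NT control replicate 2. Exons of PRDX1 and PRDX2 overlap genes on the opposite strand, and whether the counting used strand is not stated.

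**Figure D3:**
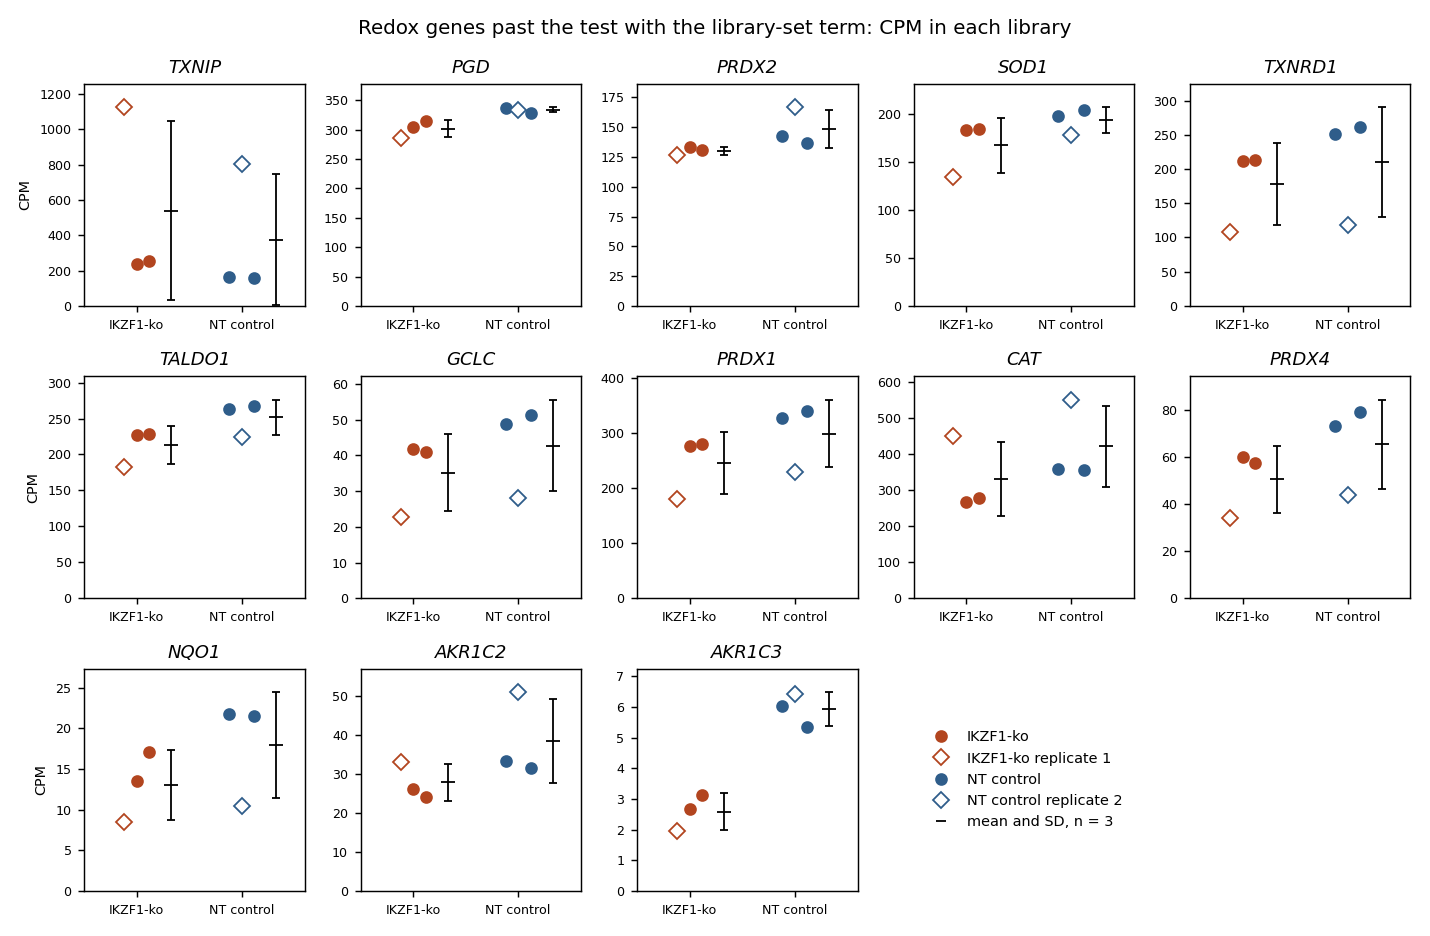
CPM in each library for the 13 redox genes that passed the test with the library-set term, IKZF1-ko left of NT control, with open diamonds for IKZF1-ko replicate 1 and NT control replicate 2 and with the mean and SD of 3 libraries. AKR1C3, PRDX2 and PGD show no overlap between the groups, and in each of the other 10 genes a library that stood apart reaches the range of the other group.

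The aldo-keto reductases AKR1C1, AKR1C2 and AKR1C3 reduce steroids, prostaglandins and reactive carbonyls, and lie next to each other on chromosome 10. AKR1C3 (ENSG00000196139, GRCh38 chromosome 10, 5035354 to 5107686) was at 1.94, 2.68 and 3.13 CPM in IKZF1-ko and 6.02, 6.42 and 5.34 CPM in NT control. These are 29, 49 and 53 counts in IKZF1-ko and 71, 94 and 61 counts in NT control. Every IKZF1-ko library lay below every NT control library, with means of 2.58 ± 0.603 and 5.93 ± 0.547 CPM (SD, n = 3 each). AKR1C3 had a log2 fold change of -1.20 (SE 0.20, edgeR adjusted p = 5.94e-04), and over 16 alternatives it ranged from -1.35 to -0.97 and passed in all 16.

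AKR1C2 was at 32.9, 26.2 and 24.1 CPM in IKZF1-ko and 33.3, 50.8 and 31.3 CPM in NT control. It fell by 0.46 on the log2 scale (SE 0.079, adjusted p = 8.95e-04), and NT control replicate 2 was the highest library. AKR1C1 was at 21.9, 13.5 and 16.1 CPM in IKZF1-ko and 14.9, 28.9 and 13.6 CPM in NT control, and did not pass (-0.13, adjusted p = 0.48). Within the set of 4 libraries the AKR1C1 values of the groups overlapped. AKR1C1 and AKR1C2 are near-identical, and 50.8% of the 50-base words of the AKR1C2 transcript also occur in AKR1C1, so reads may have been split or lost between them. For AKR1C3, 12.1% of the words are shared with another gene. The aldose reductase gene AKR1B1 (-0.14, adjusted p = 0.11) and the aldehyde reductase gene AKR1A1 (0.06) did not pass.

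The regulators of the pathway did not pass the test in any of the 3 fits. NFE2L2 was at 43.2, 57.1 and 58.8 CPM in IKZF1-ko and 60.7, 49.8 and 58.6 CPM in NT control (log2 fold change -0.09, SE 0.062, adjusted p = 0.36). KEAP1 was at 47.1, 67.1 and 57.0 CPM in IKZF1-ko and 57.4, 54.1 and 64.3 CPM in NT control (-0.04, adjusted p = 0.76). For both genes the groups overlapped, and both libraries that stood apart were the lowest of the 6. BACH1 was at 55.5, 49.4 and 54.4 CPM in IKZF1-ko and 57.9, 49.1 and 56.1 CPM in NT control (-0.03, adjusted p = 0.84). SQSTM1, whose product p62 binds KEAP1 and feeds it to autophagy, had a log2 fold change of -0.07 (adjusted p = 0.55). NRF2 is controlled mainly through the stability of the protein, which these counts do not measure. Exons of NFE2L2 and BACH1 overlap genes on the same strand, and those of SQSTM1 genes on the other strand.

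NQO1 (ENSG00000181019, GRCh38 chromosome 16, 69706996 to 69726951) was at 8.42, 13.5 and 17.0 CPM in IKZF1-ko and 21.8, 10.4 and 21.5 CPM in NT control. The lowest NT control library, replicate 2, was also the one that stood apart, and it lay below IKZF1-ko replicates 2 and 3. NQO1 fell by 0.46 on the log2 scale (SE 0.110, adjusted p = 0.011). The call was lost with a surrogate variable (-0.32, adjusted p = 0.091), without IKZF1-ko replicate 2 (-0.33, adjusted p = 0.077) and without NT control replicate 1 (-0.43, adjusted p = 0.066). OSGIN1, an oxidative stress gene that restrains growth, had 21 to 29 counts in IKZF1-ko libraries and 12 to 32 in NT control libraries and did not pass.

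GCLC and GCLM encode the catalytic and modifier subunits of glutamate-cysteine ligase, the rate-limiting enzyme of glutathione synthesis. GCLC was at 22.7, 41.7 and 40.9 CPM in IKZF1-ko and 48.7, 28.0 and 51.4 CPM in NT control. GCLM was at 12.4, 16.4 and 18.8 CPM in IKZF1-ko and 22.0, 14.5 and 20.6 CPM in NT control. The subunits showed one pattern, with IKZF1-ko replicate 1 lowest, NT control replicate 2 next, and NT control replicates 1 and 3 highest. GCLC fell by 0.28 (SE 0.067, adjusted p = 0.0097), whereas GCLM had a log2 fold change of -0.26 (SE 0.096) that did not pass (adjusted p = 0.081). For GCLC the value was -0.16 with a surrogate variable (adjusted p = 0.17), and without IKZF1-ko replicate 3 the call was lost at -0.28 (adjusted p = 0.070). Part of the GCLC exons overlaps a gene on the same strand. Glutathione synthetase (GSS, -0.04) and glutathione reductase (GSR, -0.05) did not pass.

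The core of the antioxidant response element, TGACNNNGC, was searched in the RefSeq windows. Promoters with a match are shown for the genes that passed the test and for NQO1, GCLM, TXNRD1, SRXN1 and HMOX1, taken as the best known NRF2 targets. KEAP1, GSTP1, GSTO1, MGST1, ME1 and IDH1 also have a match and are not printed. HMOX1 has no RefSeq window and was not searched, and the SRXN1 window holds no match. The capitals mark each match, written as GCNNNGTCA where it lies on the other strand.
GCLM promoter, GRCh38.p14 chr1:93909381-93909680, minus strand: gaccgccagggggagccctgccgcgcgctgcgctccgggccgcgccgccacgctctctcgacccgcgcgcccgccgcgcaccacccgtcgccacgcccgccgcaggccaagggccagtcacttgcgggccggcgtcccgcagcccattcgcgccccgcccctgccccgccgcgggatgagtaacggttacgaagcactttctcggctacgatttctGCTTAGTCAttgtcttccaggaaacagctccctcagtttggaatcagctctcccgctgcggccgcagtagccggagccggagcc
TXNRD1 promoter, upstream start, GRCh38.p14 chr12:104215529-104215828, plus strand: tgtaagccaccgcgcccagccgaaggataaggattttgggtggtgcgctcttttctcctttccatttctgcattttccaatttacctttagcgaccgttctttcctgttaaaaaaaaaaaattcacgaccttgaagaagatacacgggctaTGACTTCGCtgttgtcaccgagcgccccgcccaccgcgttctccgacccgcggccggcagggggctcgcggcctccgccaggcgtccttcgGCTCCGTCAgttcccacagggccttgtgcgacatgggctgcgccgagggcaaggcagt
TXNRD1 promoter, downstream start, GRCh38.p14 chr12:104286782-104287081, plus strand: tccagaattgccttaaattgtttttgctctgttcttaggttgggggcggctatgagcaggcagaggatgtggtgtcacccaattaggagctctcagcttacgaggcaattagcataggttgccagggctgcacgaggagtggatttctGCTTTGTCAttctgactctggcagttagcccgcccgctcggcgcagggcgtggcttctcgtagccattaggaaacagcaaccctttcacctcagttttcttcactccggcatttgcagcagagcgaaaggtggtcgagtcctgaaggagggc
PGD promoter, GRCh38.p14 chr1:10398814-10399113, plus strand: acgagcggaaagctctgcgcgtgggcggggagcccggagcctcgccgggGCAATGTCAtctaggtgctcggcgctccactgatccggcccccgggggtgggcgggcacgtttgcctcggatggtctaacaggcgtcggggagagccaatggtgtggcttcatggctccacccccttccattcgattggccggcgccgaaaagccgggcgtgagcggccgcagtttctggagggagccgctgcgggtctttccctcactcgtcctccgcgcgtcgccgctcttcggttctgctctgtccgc
The GCLM match begins 34 bases before the start. TXNRD1 has matches that begin 99 and 8 bases before its upstream start and 102 bases before its downstream start, and PGD has one 201 bases before its start.
Of 58 windows of the 37 redox genes in the RefSeq table, 10 (17.2%) hold the core on either strand, beside 13.3% of 35116 windows of all genes. A longer form, the core followed by A, was found in 6 (10.3%) of these windows beside 3.18% of all. In GCLM and in the downstream window of TXNRD1 the longer form was present. Of the 13 redox genes that passed the test, 11 have a window in the table, PRDX1 and SOD1 having none, and TXNRD1 and PGD had a core match. The windows of NQO1, GCLC, AKR1C2, AKR1C3, TXNIP, PRDX2, PRDX4, CAT and TALDO1 hold none, which says only that these letters are not in these windows.

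Catalase, encoded by CAT, breaks down hydrogen peroxide in peroxisomes. CAT (ENSG00000121691, GRCh38 chromosome 11, 34438925 to 34472062) was at 451, 267 and 278 CPM in IKZF1-ko and 359, 551 and 356 CPM in NT control. It was highest in the libraries that stood apart, and within each set IKZF1-ko was lower. The log2 fold change was -0.36 (SE 0.045, adjusted p = 6.37e-05), and it ranged from -0.45 to -0.33 over 16 alternatives, past the threshold in all 16. SOD1, the cytosolic superoxide dismutase gene, was at 134, 184 and 185 CPM in IKZF1-ko and 198, 179 and 204 CPM in NT control and fell by 0.22 (SE 0.056, adjusted p = 0.015). The call on SOD1 was lost in the 4 libraries (-0.13, adjusted p = 0.055) and with a surrogate variable (-0.18, adjusted p = 0.064). Leaving out IKZF1-ko replicate 1 or NT control replicate 2 nearly repeats the fit in the 4 libraries and also lost it (-0.13 and adjusted p = 0.057 in each). The mitochondrial form, SOD2, had a log2 fold change of -0.09 (adjusted p = 0.33). The annotated gene that it overlaps on the same strand is also named SOD2. That entry shares 5.26% of the 50-base words of the SOD2 transcript. Reads may have been split or lost between these entries, so the result is that of the tested entry alone.

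Of 5 tested genes listed for NADPH supply or the pentose phosphate pathway, TALDO1 and PGD fell, beside 6.62% of all genes. The call on PGD did not hold when any library was left out. TALDO1, the transaldolase gene of the pentose phosphate pathway, was at 182, 228 and 228 CPM in IKZF1-ko and 263, 224 and 268 CPM in NT control. It fell by 0.25 (SE 0.046, adjusted p = 0.00165) and passed in all 16 alternatives. PGD, the gene of 6-phosphogluconate dehydrogenase, was at 286, 305 and 314 CPM in IKZF1-ko and 338, 334 and 329 CPM in NT control, with no overlap. Its fall of 0.15 (SE 0.046, adjusted p = 0.044) was near the threshold. The call was lost without any one of the 6 libraries (-0.17 to -0.11, adjusted p = 0.069 to 0.15), in the 4 libraries (adjusted p = 0.082), with a surrogate variable (adjusted p = 0.0798) and with upper-quartile scaling (adjusted p = 0.0702). ME1 had 27, 48 and 50 counts in IKZF1-ko and 53, 32 and 55 counts in NT control (log2 fold change -0.62, adjusted p = 0.054), and in the 4 libraries it was lower (-0.74, adjusted p = 0.027). The transketolase gene TKT (-0.04) and the isocitrate dehydrogenase gene IDH1 (0.02) did not pass.

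Of 3 glutathione peroxidase genes and 6 glutathione transferase genes, 0 passed with the library-set term, beside 13.5% of all genes. At an unadjusted p under 0.05 there were 1 of the 3 and 1 of the 6, and the share of all genes was not counted there. GPX1 was at 662, 837 and 749 CPM in IKZF1-ko and 662, 699.6 and 674 CPM in NT control (log2 fold change 0.14, adjusted p = 0.14). In the 4 libraries it was higher in IKZF1-ko by 0.25 (adjusted p = 2.75e-04), while IKZF1-ko replicate 1 was below NT control replicate 2. GPX4, which protects membrane lipids and restrains ferroptosis, was at 103, 118 and 106 CPM in IKZF1-ko and 117, 121 and 114 CPM in NT control (-0.11, adjusted p = 0.23). GSTP1 had a log2 fold change of -0.15 (adjusted p = 0.087), and without IKZF1-ko replicate 2 or NT control replicate 3 it was -0.19 and -0.20 (adjusted p = 0.046 and 0.0498). The microsomal transferase gene MGST3 was at 40.4, 37.2 and 38.4 CPM in IKZF1-ko and 36.8, 35.6 and 33.5 CPM in NT control, with no overlap, and did not pass (0.13, adjusted p = 0.25). GPX7, GSTO1, GSTM3, MGST1 and MGST2 had log2 fold changes between -0.10 and 0.05.

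The groups did not overlap in 4 of 43 redox genes, or 9.30%, beside 9.35% of all genes. MGST3 was higher in IKZF1-ko (5.28% of all genes were), and AKR1C3, PRDX2 and PGD were lower (4.07% of all genes). The direction in the 4 libraries was also set beside the pair formed by IKZF1-ko replicate 1 and NT control replicate 2, which share no library with them. Of the 13 redox genes called in the 4 libraries, 11 (84.6%) had the same sign in that pair, beside 83.7% of 1902 genes called there. The exceptions were GPX1 and PRDX5. Over all 43 redox genes the share was 65.1%, beside 63.0% of all genes. In the 4 libraries both IKZF1-ko libraries were deeper (18214328 and 16751839 counts) than both NT control libraries (11699047 and 11300519), and the part of depth was not tested.

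IKZF1-ko replicate 1 and NT control replicate 2 lay apart in the redox genes about as often as in all genes. Because these libraries were set apart by the counts themselves, their values are a description without a test. In 12 redox genes (27.9%) both IKZF1-ko replicate 1 and NT control replicate 2 lay above the other 4 libraries, beside 32.5% of all genes, and in 17 (39.5%) both lay below, beside 31.5%. Either pattern held for 29 of 43 redox genes, beside 63.9% of all genes. TXNIP was 2.18 above the mean of IKZF1-ko replicates 2 and 3 in IKZF1-ko replicate 1, and 2.32 above the mean of NT control replicates 1 and 3 in NT control replicate 2, both in log2 CPM. These are 4.54-fold and 5.01-fold higher levels within a group, against a group difference of 1.49-fold with the library-set term. On the same scale and in the same order of libraries AKR1C1 was higher by 0.56 and 1.01, CAT by 0.73 and 0.62, IDH1 by 0.64 and 0.53, AKR1A1 by 0.52 and 0.66, and TKT by 0.43 and 0.67.

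NRF2-linked genes lay on both sides in these libraries. OSGIN1 was higher by 0.23 and 0.89 and SQSTM1 by 0.44 and 0.38, beside AKR1C1 above. Others were lower, and TXNRD1 was at -0.98 in IKZF1-ko replicate 1 and -1.11 in NT control replicate 2, relative to the other 2 libraries of their group in log2 CPM. NQO1 was at -0.84 and -1.04, GCLC at -0.86 and -0.83, PRDX4 at -0.78 and -0.80, PRDX1 at -0.62 and -0.55, and GCLM at -0.49 and -0.55. NFE2L2 was at -0.42 and -0.26 on the same scale. For AKR1C3 the libraries went opposite ways, with -0.55 and 0.17.

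**Figure D4:**
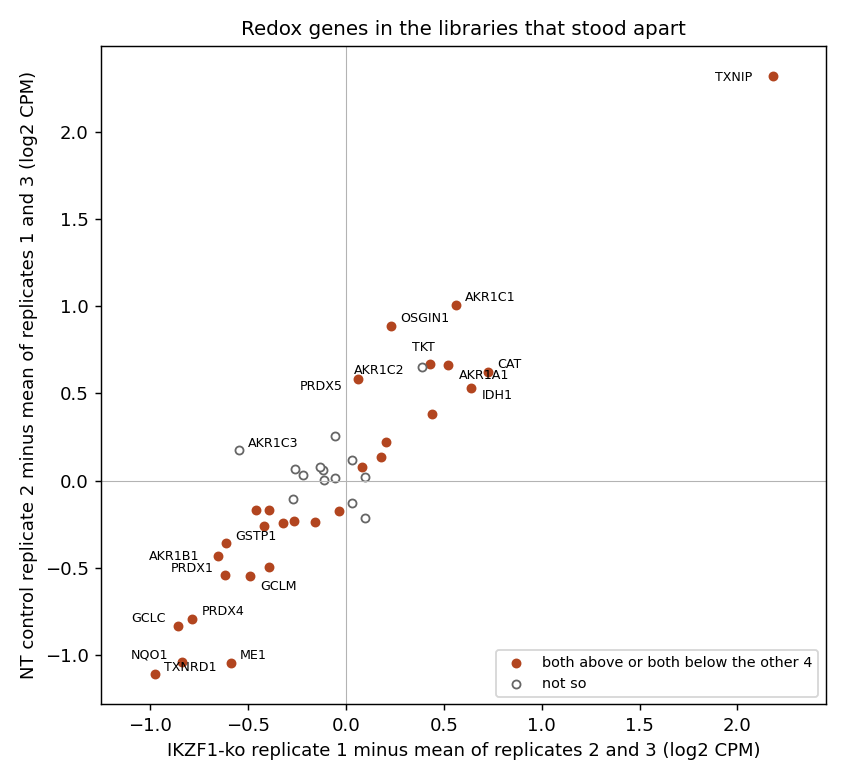
Difference in log2 CPM of IKZF1-ko replicate 1 from the mean of IKZF1-ko replicates 2 and 3, against that of NT control replicate 2 from the mean of NT control replicates 1 and 3, for the 43 redox genes. TXNIP lies at 2.18 and 2.32, TXNRD1 at -0.98 and -1.11, and filled points are genes with both libraries above or both below the other 4.

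A further 78 genes of these pathways were listed, with the redox genes and part of their results known, and 68 of them passed the filter on low counts. With the library-set term 7 rose and 5 fell, beside 6.93% and 6.62% of all genes, and the median log2 fold change was 0.006. On group alone 0 passed with edgeR, beside 0.0% of all genes, and 4 had an unadjusted p under 0.05, beside 3.5%. DESeq2 on group alone called 0 of them, beside 71 of 13028 genes. With DESeq2 and the library-set term 1 rose and 3 fell, beside 533 and 626 of 13028 genes. In the 4 libraries alone 13 rose and 4 fell, beside 7.64% and 7.1% of 12951 genes. The number that rose therefore depends on the fit. With edgeR and the library-set term those that rose were GSTM2, ALDH1L2, BLVRB, ABCC1, ABCC4, GGT7 and GSTM4. ALDH1L2, which makes NADPH from folate in mitochondria, was at 128, 172 and 171 CPM in IKZF1-ko and 111, 124 and 116 CPM in NT control (log2 fold change 0.41, SE 0.079, adjusted p = 0.00223), with no overlap. GSTM2 rose by 0.74 (adjusted p = 0.00172), a value that is uncertain because it shares exons with GSTM1 and GSTM4. The efflux pump gene ABCC1, known for carrying glutathione conjugates, rose by 0.19 (adjusted p = 0.022).

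SESN1, MSRB1, MSRB3 and BLVRA were among the genes that fell. SESN1, a sestrin gene known as a p53 target, was at 45.04, 39.9 and 39.8 CPM in IKZF1-ko and 51.4, 52.1 and 51.7 CPM in NT control and fell by 0.32 (adjusted p = 0.00351). The methionine sulfoxide reductase gene MSRB1 fell by 0.28 (adjusted p = 0.011). Neither SESN1 nor MSRB1 overlapped between the groups. Exons of ALDH1L2 and SESN1 overlap a gene on the other strand. SLC7A11, the cystine importer gene that feeds glutathione synthesis, did not pass (-0.11, adjusted p = 0.37). It was at 27.1, 134 and 139 CPM in IKZF1-ko and 133, 39.6 and 137 CPM in NT control, so that its low values were those of the libraries that stood apart.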

How the data were processed

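Polyadenylated RNA of OCI-AML2 cells went into a stranded mRNA kit and NovaSeq sequencing, per the labels' protocols. The authors deposited whole-number read counts per Ensembl gene for 6 libraries, with no scaling. The submitters' processing notes name Trimmomatic, STAR and GRCh38. No source used here gives the read counter, its strand setting or the annotation release.

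Each column was matched to a sample by library name. The 45 members, the 78 other pathway genes and the tests were chosen with earlier results of these data known. Identifiers were named from a gene table (57392) and GENCODE 29 (57895), and exon overlaps and lengths come from GENCODE 29. Promoters are from RefSeq (GRCh38.p14), with 37 members matched. Where a member shares exon positions with another gene, its count is uncertain. On the same strand these are NFE2L2, BACH1, OSGIN1, GCLC, SRXN1 and SOD2, and on the other strand only SQSTM1, NQO1, GSTM3, MGST2, TXNRD2, PRDX1, PRDX2 and IDH1.

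filterByExpr kept 13028 genes with 99.9% of counts. Tests were the two-sided quasi-likelihood F test of edgeR 4.0.16 (R 4.3.3, TMM) with Benjamini-Hochberg adjustment over all genes at 0.05, on group alone and with a library-set term from the sign of the first principal component of log2 CPM (prior count 2). SE is the size of the log2 fold change over the square root of F. Alternatives used DESeq2 1.42.0, limma 3.58.1, sva 3.50.0, other scalings and filters, a replicate block and each library left out. The edgeR tests were run on simulated counts with the library sets given, which does not cover sets that are taken from the counts. Genes given with values in every library were the main regulators, the best known NRF2 targets, the AKR1C genes and every member past the threshold. Of the other pathway genes, SLC7A11 and those with the lowest adjusted p were named, and 1 that fell is not reported here. PRDX5, ME1, GPX1, GPX4 and MGST3 were added after their values were seen, as were AL121758.1 and the carbohydrate response element.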

Additional observations from a re-analysis of the deposited data

How the results depend on the processing

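On group alone, the 0 called genes became 71 with DESeq2, 1 with limma-voom, 407 with limma-voom and sample quality weights, and 8 with no filter on low counts. The redox genes called became 1 with DESeq2 and 2 with quality weights, and the other pathway genes 3 with quality weights. The replicate block called 0 genes in that fit, and leaving out each library gave 0 to 0.

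With the library-set term, the 1765 called genes became 1047 with 1 surrogate variable, 1159 with DESeq2 and 811 to 1943 when each library was left out, with the lowest counts without IKZF1-ko replicate 3 (811) and NT control replicate 1 (948). The 13 redox genes called became 8 with the surrogate variable, were 9 to 13 with a library left out, and were 11 to 16 under the other scalings, filters and tools and in the 4 libraries. The 12 other pathway genes called became 4 with DESeq2 and 4 to 17 with a library left out, at 4 without IKZF1-ko replicate 3 or NT control replicate 1 and 6 without NT control replicate 3. The causes were not tested. Of 688 values of single redox genes under these alternatives, 640 stayed on their side of the threshold, 27 lost a call, 21 gained one and 0 calls reversed. Leaving out IKZF1-ko replicate 1 or NT control replicate 2 nearly repeats the fit in the 4 libraries, because the library that remains has no partner in its set. The alternatives of a gene are therefore not all separate checks. The number of redox genes apart in IKZF1-ko replicate 1 and NT control replicate 2 was 29, and 29 to 30 under other scalings.

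The correlations of same-numbered deviations from the group means were -0.66, -0.69 and 0.59. Their signs follow the libraries that stood apart, since IKZF1-ko replicate 1 and NT control replicate 2 correlated at 0.82. These values therefore cannot show whether the replicate numbers pair the libraries. With the library-set term the replicate block called 2942 genes, 19 redox genes and 20 other pathway genes. Genes with few counts, such as HMOX1, SRXN1, OSGIN1, ME1 and AKR1C3, are limited by depth.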
